A study of Danio rerio and Garra andruzzii with 24 samples.

Results

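The genes described here are the annotated noncoding genes of zebrafish PAC-2 cells, a line of fibroblasts established from zebrafish embryos, followed over 6 h of blue light. Of the 6470 genes of the Ensembl annotation in the count table whose biotype is not protein-coding, 474 had a mean of at least 10 reads over the 12 libraries and were taken as members. The table holds 31901 annotated genes in all, of which 25431 are protein-coding. After 2 days of darkness the cells were harvested either at once, as the dark control (0 h), or following blue light of 1 h, 3 h or 6 h, and each time has 3 libraries. No genotype or other treatment differed between the groups, and all values come from 1 cell line. No libraries kept in the dark beyond 0 h were analysed here, so light and the time that passed cannot be told apart. Nothing in the labels tells whether the 3 libraries of a time are separate cultures, and the spread that the tests use may therefore be technical.

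Noncoding genes are transcribed without giving a protein. Long intergenic noncoding RNAs (lincRNAs) by definition lie between coding genes, although some annotated as such here, BX936337.1 and oip5-as1 among them, overlap coding genes. Antisense genes lie on the strand opposite to another gene, and processed transcripts are spliced RNAs for which the annotation gives no open reading frame. Primary transcripts of microRNA genes are capped and often polyadenylated and are cut in the nucleus to a hairpin, whereas small nucleolar RNAs (snoRNAs) are mostly cut from the introns of host genes and guide the modification of ribosomal RNA. In zebrafish, cells outside the eye respond to light directly, and genes of the circadian clock and of DNA repair are induced by it.

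By class, the members were 141 lincRNAs, 131 processed transcripts, 65 antisense genes, 54 pseudogenes, 21 snoRNAs and small Cajal body RNAs, 20 cytosolic ribosomal RNA genes, 18 mitochondrial transfer RNAs, 9 microRNA genes, 9 sense intronic or overlapping genes, 2 mitochondrial ribosomal RNAs and 4 others. The libraries were made from RNA bound to poly-T beads, and short RNAs without a poly(A) tail are measured here only as far as they remained in it. The label noncoding did not hold for every member. A newer table of gene names gave 365 members a symbol, and 41 of the members carried a symbol that RefSeq (GRCz12tu) lists as protein-coding, 27 a symbol it lists as long noncoding RNA. The member with the most reads, FO704736.1, is annotated as a processed transcript here and bears the symbol rps20, a protein of the small ribosomal subunit.

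The libraries held 20037859 to 32521127 read counts, and the lowest correlation of log2 normalised counts between any pair of libraries was 0.972. Of 22 fibroblast markers, 15 were above 10 FPKM (fragments per kilobase of gene length, scaled to library size) at 0 h, with col1a2 at 245.0 FPKM, while vim, dcn, thy1, tcf21 and fn1b were at or under 1 FPKM. The neural, blood and liver markers listed were all at or under 1 FPKM. Of the others, dct was at 96.8 FPKM while the remaining pigment cell markers mitfa, tyr and pmela were at or under 1 FPKM, as were krt5 and epcam of epidermis (krt4 at 44.5 FPKM, 2 of 4 above 1 FPKM), acta1b, desma, ckma and tnnt3b of muscle (acta1a at 32.4 FPKM, 2 of 6 above 1 FPKM), and cdh5 and pecam1 of endothelium (kdr at 11.2 FPKM). The light response was present in these libraries, since the clock gene per2 had 5870, 5540 and 5310 normalised counts after 6 h of light, against 448, 420 and 445 at 0 h. A normalised count is a read count divided by the library's effective size and scaled to the size of the mean library.

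At 0 h the members were low. Their median level was 2.43 FPKM, with quartiles at 0.782 and 7.25 FPKM, against a median of 5.08 FPKM for the 13624 protein-coding genes with the same minimum of reads. Among the 4 classes with the most members, antisense genes had the lowest median, at 0.924 FPKM, followed by pseudogenes at 1.18 FPKM, processed transcripts at 1.87 FPKM and lincRNAs at 2.56 FPKM. The quartiles of these 4 classes overlapped. MicroRNA genes and snoRNAs had medians of 5.20 and 5.76 FPKM, but these genes are short, so that few reads make a high value. Only 140 of the 474 members had a mean of 100 reads or more, and 136 had fewer than 20. The median mean count was 40 reads for members and 364 reads for the coding genes, and the median coefficient of biological variation between libraries of a time was 0.160 for members and 0.0819 for coding genes.

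**Figure D1:**
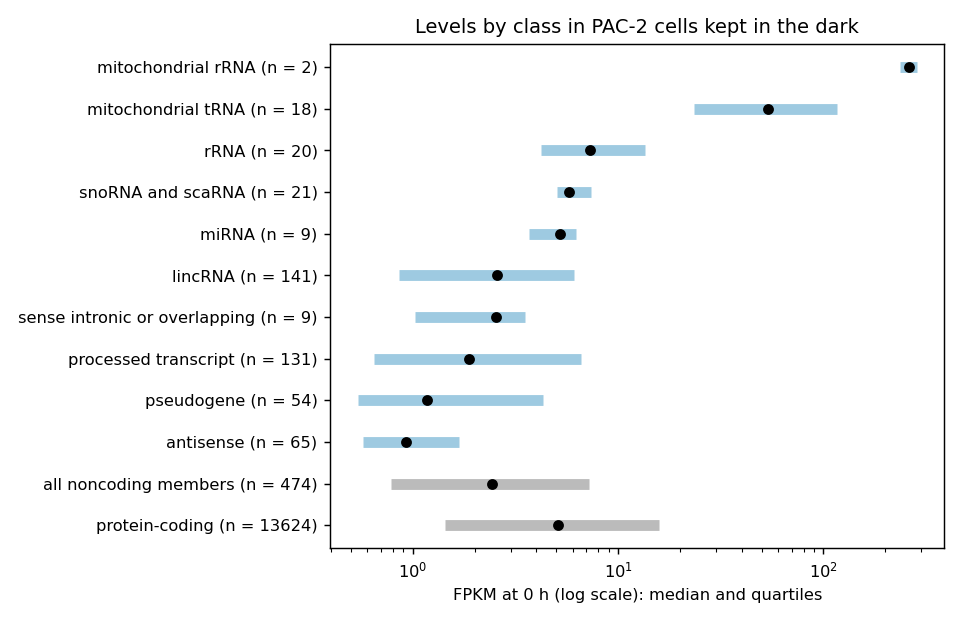
Levels of the members by class in PAC-2 cells at 0 h, as FPKM on a log axis. Dots are medians over genes, bars run between the quartiles, and grey bars are all members and the protein-coding genes with the same minimum. Antisense genes are lowest, with a median of 0.924 FPKM, and the mitochondrial RNAs highest, with a median of 53.5 FPKM for the 18 transfer RNAs.

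The first comparison asked which noncoding genes changed after 1 h of light. None of the 474 members passed the study's thresholds, a log2 fold change of at least 1 in either direction and an adjusted p below 0.001, in edgeR's quasi-likelihood test or in DESeq2, where 0.0222% of the 18017 genes tested did in edgeR. At an unadjusted p below 0.05, 15 members were higher and 13 lower, or 3.16% and 2.74%, against 3.39% and 2.64% of all genes. At an adjusted p below 0.05, 1 member was higher and 0 lower, against 0.155% and 0.0167% of all genes.

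After 3 h of light 4 members were called higher, which is 0.844% of them, against 0.705% of all genes tested. After 6 h of light 7 members were called higher, which is 1.48%, against 1.47% of all genes. The members' share was thus close to the background at both times. No member was called lower at 3 h or 6 h in edgeR or DESeq2, where 0.0278% and 0.0722% of all genes were in edgeR. At an unadjusted p below 0.05, 47 and 55 members were lower at 3 h and 6 h, or 9.92% and 11.6%, against 17.2% and 20.2% of all genes. At the same threshold 66 and 67 were higher, or 13.9% and 14.1%, against 16.9% and 19.3%. Over both times, 8 different members were called. A mean under 10 reads at 0 h was found in 41 members. They reached the minimum only through other times and so had to have more raw reads there, if not always a higher normalised count. Of them, 3 (BX663516.1, BX005129.5 and BX005129.3) were called. Counts over members include these and are given as values. The calls were spread over classes, with 2 lincRNAs, 1 microRNA gene and 1 processed transcript at 3 h, and 4 processed transcripts, 2 lincRNAs and 1 antisense gene at 6 h. None of the 5996 noncoding genes under the minimum of 10 reads was called, but only 76 of them had enough reads to be tested.

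With the looser threshold of an adjusted p below 0.05 and no fold limit, 41 members were higher and 20 lower after 3 h of light. These are 8.65% and 4.22% of the members, against 11.3% and 10.1% of all genes. After 6 h, 46 members were higher and 34 lower, or 9.70% and 7.17%, against 14.1% and 14.9% of all genes. Of the 41 members with a mean under 10 reads at 0 h, 8 were among those higher at 6 h, BX663606.1, dre-mir-29b-1 and CU138542.2 included, and 0 among those lower. Members thus passed this threshold less often than all genes in each direction at both times, and they also had fewer reads and a larger variation between libraries than coding genes. The difference in share, and the part of depth in it, was not tested. RNA was taken from whole cultures, so fewer cells that express a gene and less RNA per cell cannot be told apart. The median log2 fold change of the members was 0.05 at 3 h and 0.04 at 6 h, beside 0.00 for all genes at both times. Of the members, 25 passed at both 3 h and 6 h in the same direction and 4 in opposite directions. The shares of all genes that did so are not given here, so these counts are values only. Between 6 h and 3 h of light, 112 members (23.6%) differed at an adjusted p below 0.05, against 40.5% of all genes.

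The antisense gene FP017217.1 was the only member that passed at an adjusted p below 0.05 after 1 h of light. BX663516.1, BX539307.3 and BX005129.3, described below, also had all 1 h libraries above 0 h, with larger log2 fold changes, but did not pass. They had 22.4, 27.2 and 14.2 reads on average, against 1480 for FP017217.1. FP017217.1 lies on chr14:7724876-7744153 of GRCz11, on the minus strand. It overlaps the coding gene brd8, a bromodomain protein of a histone acetyltransferase complex, on the opposite strand. It had 923, 942 and 933 normalised counts at 0 h, 1390, 1350 and 1370 at 1 h, 1600, 1650 and 1630 at 3 h, and 2020, 1960 and 1750 at 6 h. The groups did not overlap at any time, and each time was above the one before it. The log2 fold change was 0.56 ± 0.06 (SE) at 1 h, with an adjusted p of 7.69e-05, then 0.80 ± 0.06 at 3 h and 1.03 ± 0.05 at 6 h, with an adjusted p of 5.45e-10. Only the value at 6 h passed the fold limit, and without the first library of 6 h it was 0.99. The gene brd8 had 1080, 1170 and 1160 normalised counts at 6 h, against 1140, 1220 and 1320 at 0 h, and did not pass the test (log2 fold change -0.12 ± 0.06, adjusted p = 0.174). The current symbol of FP017217.1, si:ch211-39i2.2, is listed as protein-coding in RefSeq.

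BX936337.1 (si:dkey-100n23.4), a lincRNA on chr9:30245637-30248034, minus strand, had 907, 857 and 992 normalised counts at 0 h, 1010, 972 and 1110 at 1 h, 1800, 2100 and 1810 at 3 h, and 2050, 2010 and 1970 at 6 h. All libraries of 3 h and 6 h were above all those of 0 h and 1 h. It rose by 1.05 ± 0.07 on the log2 scale at 3 h (adjusted p = 2.39e-08) and by 1.13 ± 0.07 at 6 h (adjusted p = 4.73e-09). At 3 h it lay just past the fold limit, and it was 0.998 without the second library of 0 h and 0.974 without the second library of 3 h. The coding gene that it overlaps on the same strand, si:dkey-100n23.3, had 238, 260 and 238 normalised counts at 6 h, against 244, 257 and 237 at 0 h (log2 fold change -0.01 ± 0.10). The coding gene 537 bases away on the other side, si:dkey-100n23.5, had -0.29 ± 0.10 (adjusted p = 0.0320). At a gap of 15154 bases lies mid1ip1a, a regulator of fatty acid synthesis, on the same strand. It had 1220, 1290 and 1270 normalised counts at 3 h, against 594, 627 and 685 at 0 h, and its log2 fold change was 0.99 ± 0.06 at 3 h and 0.69 ± 0.06 at 6 h (adjusted p = 1.18e-08 and 5.42e-07), under the fold limit at both times.

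**Figure D2:**
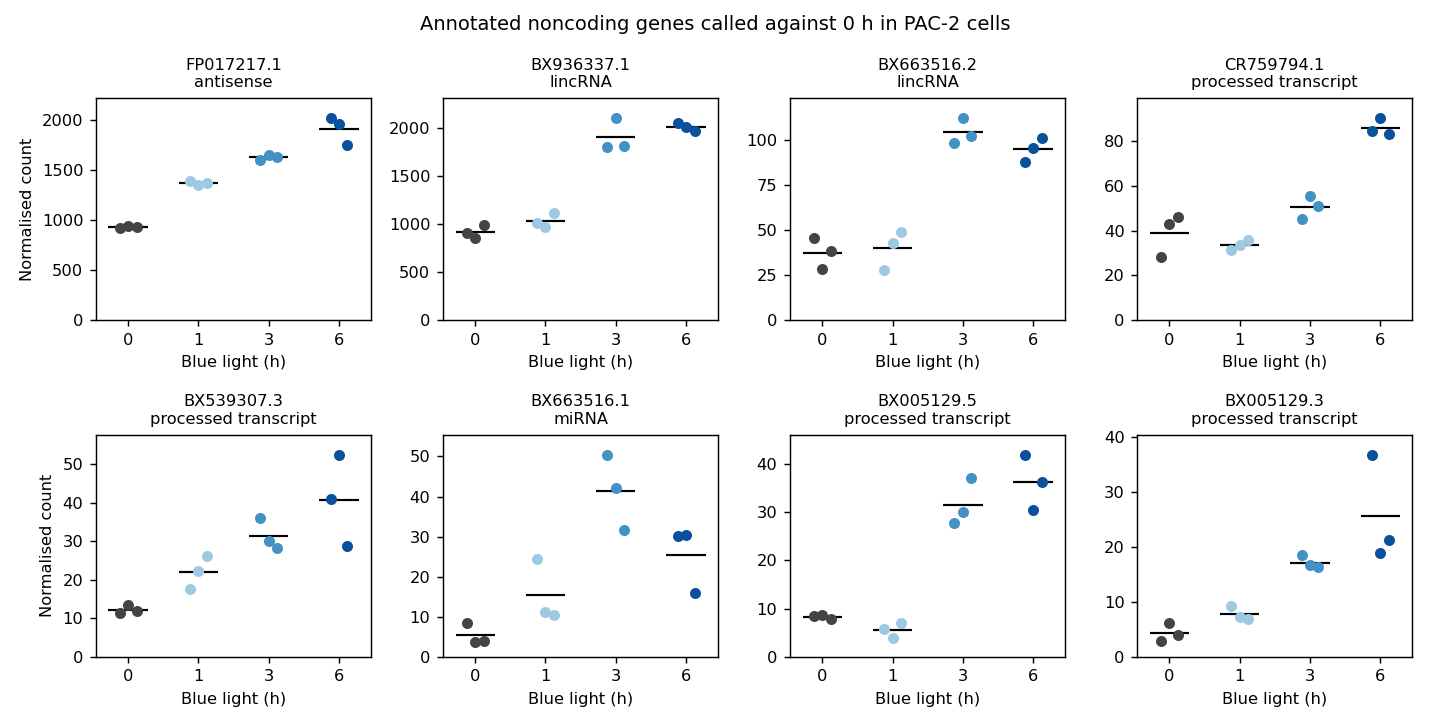
Normalised counts of the 8 members called against 0 h at 3 h or 6 h, 1 panel each, after 0, 1, 3 and 6 h of blue light. Dots are the 3 libraries of a time and lines their means. In every panel all libraries of 6 h lie above all libraries of 0 h. FP017217.1, BX663516.1, BX539307.3 and BX005129.3 are already above 0 h at 1 h, whereas CR759794.1 is high at 6 h only.

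A stretch of chromosome 10 held 2 of the called members and a pair of further microRNA genes. On the plus strand lie BX663516.1, annotated as a microRNA gene with no other name (chr10:35644719-35644798), and, 219 bases further, dre-mir-132-2 (chr10:35645017-35645135). The microRNA miR-132 is known in mouse as light-induced in the suprachiasmatic nucleus, the central clock of mammals. On the minus strand, 6359 bases beyond dre-mir-132-2, lies the lincRNA BX663516.2 (si:dkey-16f21.2, chr10:35651494-35653914), and 331 bases from it dre-mir-2184. The last of these had a mean of 8.67 reads and so was no member.

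BX663516.1 had 8.49, 3.70 and 3.94 normalised counts at 0 h, 24.5, 11.2 and 10.5 at 1 h, 50.4, 42.2 and 31.6 at 3 h, and 30.1, 30.4 and 16.0 at 6 h. These are few reads, namely 9, 3 and 3 raw reads at 0 h and 60, 38 and 29 at 3 h, and the gene reached the minimum of reads only through the light libraries, but the libraries of each light time lay above those of 0 h. Its log2 fold change was 1.39 ± 0.48 at 1 h (adjusted p = 0.676), 2.86 ± 0.44 at 3 h (adjusted p = 0.000251) and 2.17 ± 0.45 at 6 h (adjusted p = 0.00172). It was the member with the largest fold change at 3 h among those that passed at an adjusted p below 0.05. The call at 3 h was lost without the second or the third library of 0 h, or the first or the second library of 3 h, with adjusted p of 0.00261, 0.00108, 0.00209 and 0.00125 in turn and log2 fold changes of 2.65 to 2.85. At 6 h it was not called in the main edgeR fit. It was called by DESeq2, and by edgeR with no filter on low counts, with a replicate block or without the first library of 1 h.

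The lincRNA BX663516.2 had 45.3, 28.3 and 38.1 normalised counts at 0 h, 28, 43.0 and 48.8 at 1 h, 98.2, 112 and 102 at 3 h, and 87.9, 95.5 and 101 at 6 h. It was unlike BX663516.1 in that the libraries of 1 h overlapped those of 0 h. Its log2 fold change was 1.47 ± 0.21 at 3 h (adjusted p = 0.000115) and 1.33 ± 0.21 at 6 h (adjusted p = 0.000146). Without the second library of 0 h these became 1.30 and 1.17, with adjusted p of 0.00119 and 0.00130, and both calls were lost.

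For dre-mir-132-2 the counts were 11.3, 16.0 and 19.7 at 0 h, 4.66, 17.5 and 6.10 at 1 h, 41.1, 37.8 and 39.2 at 3 h, and 39.3, 31.5 and 25.6 at 6 h, all normalised. The libraries of 3 h and 6 h lay above those of 0 h. Its log2 fold change was 1.35 ± 0.37 at 3 h (adjusted p = 0.0159) and 1.06 ± 0.37 at 6 h (adjusted p = 0.0422), so that it rose at an adjusted p below 0.05 but was not called. At 3 h it was 1.14 (adjusted p = 0.0787) without the first library of 0 h. At 6 h the adjusted p was above 0.05 in DESeq2 (0.0552) and without any 1 of 7 libraries, from 0.0526 without the second library of 3 h to 0.131 without the first of 0 h and 0.155 without the first of 6 h. Values for dre-mir-2184 were 2.04 ± 0.52 at 3 h (adjusted p = 0.0107) and 2.27 ± 0.51 at 6 h (adjusted p = 0.00283). They rest on few reads, namely 3, 2 and 3 raw reads at 0 h and 9, 15 and 14 at 3 h. The nearest coding gene, ovca2, had 175, 173 and 184 normalised counts at 3 h, against 94.3, 128 and 122 at 0 h (log2 fold change 0.64 ± 0.14, adjusted p = 0.00381), and 0.17 ± 0.14 at 6 h (adjusted p = 0.384). On the other side of the stretch, 30967 bases from BX663516.1, lies smg6, which acts in nonsense-mediated decay. This gene did not pass at 3 h or 6 h, with log2 fold changes of 0.00 ± 0.06 and 0.13 ± 0.06. In this stretch, 4 noncoding genes, a pair on each strand, were higher at 3 h at an adjusted p below 0.05. Among them, BX663516.1 and dre-mir-2184 had enough reads to be tested only through the light libraries. The stretch was also described because it held called members. The count is therefore partly set by these choices and is given as a value only.

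**Figure D3:**
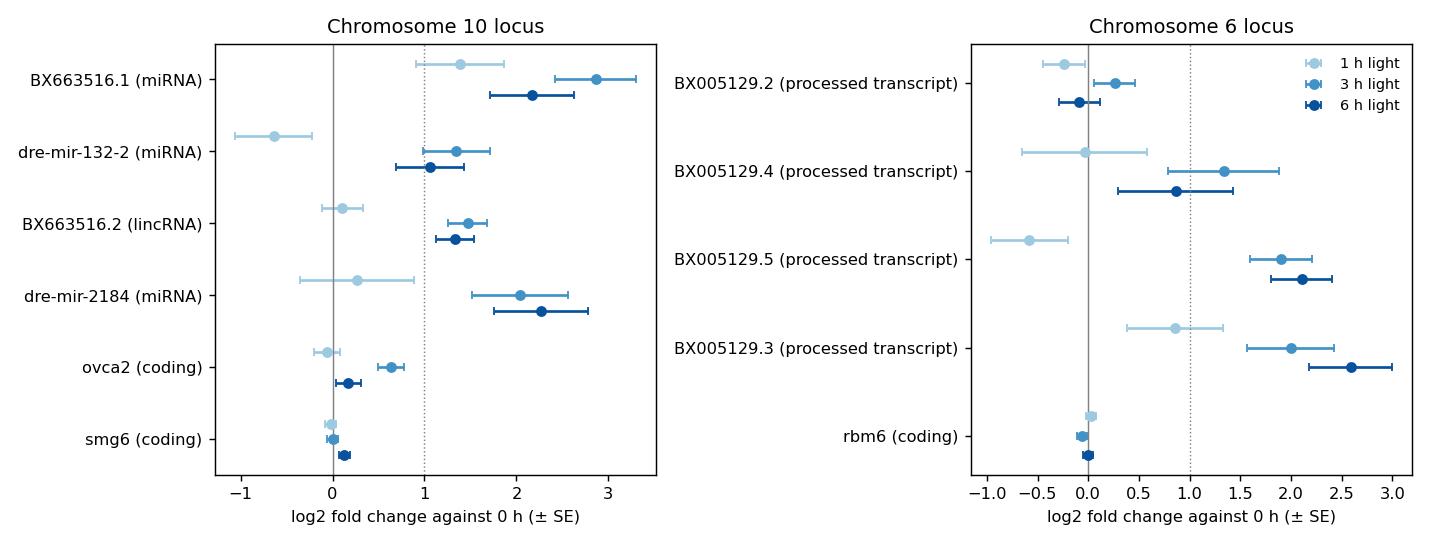
Log2 fold change against 0 h, with its SE, at 1, 3 and 6 h of blue light for genes of the chromosome 10 and chromosome 6 stretches. Genes are ordered from top to bottom along the chromosome, except smg6. It is drawn at the bottom but lies before BX663516.1 on chromosome 10. The dotted line marks the fold limit of 1. The 4 noncoding genes of chromosome 10 lie right of 1 at 3 h while smg6 lies at 0.00, and on chromosome 6 BX005129.5 and BX005129.3 lie right of 1 at 3 h and 6 h while rbm6 stays at 0.

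On chromosome 6, 2 neighbouring processed transcripts were called. BX005129.5 (si:ch211-241d24.5, chr6:42635960-42643033, plus strand) had 8.49, 8.62 and 7.88 normalised counts at 0 h, 5.83, 3.99 and 6.97 at 1 h, 27.7, 30.0 and 37.0 at 3 h, and 41.9, 30.4 and 36.2 at 6 h. Its libraries at 1 h lay below those of 0 h and its libraries at 3 h and 6 h above them, and only through these later times did it reach the minimum of reads. The log2 fold change was -0.58 ± 0.38 at 1 h (adjusted p = 0.931), 1.90 ± 0.30 at 3 h (adjusted p = 0.000395) and 2.10 ± 0.30 at 6 h (adjusted p = 6.18e-05). The call at 3 h was lost without any 1 of the 6 libraries of 0 h and 3 h, with adjusted p of 0.00120 to 0.00284, while that at 6 h was kept whichever library was left out.

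BX005129.3 (si:ch211-241d24.4, chr6:42646411-42653425), 3378 bases further on the same strand, had 2.83, 6.16 and 3.94 normalised counts at 0 h, 9.33, 7.17 and 6.97 at 1 h, 18.5, 16.7 and 16.3 at 3 h, and 36.8, 18.9 and 21.3 at 6 h. The libraries of every light time lay above those of 0 h. It had 3, 5 and 3 raw reads at 0 h and 8, 9 and 8 at 1 h, so it reached the minimum only through 3 h and 6 h. The log2 fold change was 2.00 ± 0.43 at 3 h (adjusted p = 0.00367) and 2.59 ± 0.41 at 6 h (adjusted p = 0.000163). The call at 6 h was lost without the first (2.32, adjusted p = 0.00142) or the third (2.55, adjusted p = 0.00114) library of 0 h, or the first of 6 h (2.22, adjusted p = 0.00164).

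Another transcript of this stretch, BX005129.4, had a mean of 9.67 reads, just under the minimum, and log2 fold changes of 1.34 ± 0.55 at 3 h and 0.86 ± 0.57 at 6 h that did not pass (adjusted p = 0.0953 and 0.282). BX005129.2 is a member and had 0.26 ± 0.20 and -0.09 ± 0.20. The nearest coding gene that was tested, rbm6, which encodes an RNA-binding protein and lies 13269 bases from BX005129.3, had 2500, 2330 and 2370 normalised counts at 6 h, against 2460, 2350 and 2400 at 0 h (log2 fold change -0.00 ± 0.05).

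The last pair of called members were high at 6 h. CR759794.1, a processed transcript on chr13:16261245-16278920 whose current symbol is mocos, the enzyme that sulfurates the molybdenum cofactor and a protein-coding gene in RefSeq, had 28.3, 43.1 and 46.0 normalised counts at 0 h, 31.5, 33.5 and 35.7 at 1 h, 45.3, 55.5 and 51.2 at 3 h, and 84.5, 90.3 and 83.1 at 6 h. The libraries of 6 h lay apart from all the others. The log2 fold change was 0.38 ± 0.20 at 3 h (adjusted p = 0.198) and 1.15 ± 0.20 at 6 h (adjusted p = 0.000331). Without the first library of 0 h it was 0.95 (adjusted p = 0.00167), and the call was also lost without the second library of 0 h or any 1 library of 6 h, with adjusted p of 0.00106 to 0.00218. Its neighbour anxa11a, 970 bases away on the same strand, had 5520, 5240 and 5390 normalised counts at 6 h, against 6190, 6150 and 6420 at 0 h (log2 fold change -0.22 ± 0.05, adjusted p = 0.00197).

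BX539307.3 (si:dkey-253d23.1), a processed transcript on chr22:9824521-9826469, minus strand, had 11.3, 13.5 and 11.8 normalised counts at 0 h, 17.5, 22.3 and 26.2 at 1 h, 36.1, 30.0 and 28.3 at 3 h, and 41.0, 52.5 and 28.8 at 6 h. Every light library lay above every library of 0 h. The log2 fold change was 0.86 ± 0.31 at 1 h (adjusted p = 0.700), 1.37 ± 0.30 at 3 h (adjusted p = 0.00418) and 1.73 ± 0.29 at 6 h (adjusted p = 0.000302). The call at 6 h was lost without any 1 library of 0 h or without the first or the second of 6 h, with adjusted p of 0.00133 to 0.00240. The coding gene 819 bases away on the same strand, si:dkey-253d23.2, moved the same way by less, at 0.53 ± 0.16 (adjusted p = 0.0203).

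The time courses of the called members were compared with those of all 18017 genes by Pearson's r of log2 normalised counts over the 12 libraries, as a description, since all genes share the libraries. BX936337.1 was most like zgc:110339 (r = 0.993), napepld (r = 0.992), which makes N-acylethanolamine lipids, and coa3a (r = 0.991), an assembly factor of cytochrome c oxidase. FP017217.1 was most like scinlb (r = 0.985) and impdh1b (r = 0.962), an enzyme of guanine nucleotide synthesis, besides 1 unannotated locus. At 6 h the log2 fold changes of zgc:110339, napepld and coa3a were 0.79, 1.69 and 0.99, against 1.13 for BX936337.1. Those of scinlb, impdh1b and the unannotated locus were 0.47, 0.27 and 1.08, against 1.03 for FP017217.1. Pearson's r does not depend on the size of a change, so it tells nothing of likeness in size.

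The genes most like CR759794.1 were glsl (r = 0.961), zgc:162184 (r = 0.958) and crfb16 (r = 0.956), and crfb16 had a log2 fold change of 3.84 at 6 h. For BX663516.1 they were palm1b (r = 0.920), lonrf1l (r = 0.914) and dnajb4 (r = 0.914), of which lonrf1l had a log2 fold change of 4.02 at 3 h and dnajb4 one of 0.21. For BX539307.3 the most alike gene was FP017217.1 itself (r = 0.951), then pdxka (r = 0.932), a kinase of vitamin B6 metabolism. The lincRNA BX663516.2 was, among annotated genes, most like smim29 (r = 0.968) and ormdl1 (r = 0.967), BX005129.5 among annotated genes like dclre1a (r = 0.979), a nuclease of DNA crosslink repair, and BX005129.3 like gmppab (r = 0.970).

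Below the call threshold, the largest increases at 6 h among members whose 6 h libraries all lay above 0 h were in 5 further genes. The lincRNA CU179758.1 had 65.3, 49.3 and 36.2 normalised counts at 6 h, against 18.9, 17.2 and 9.20 at 0 h (log2 fold change 1.71 ± 0.39, adjusted p = 0.00346), and 0.09 ± 0.44 at 3 h. It was called at 6 h without the third library of 3 h, at 1.71 with an adjusted p of 0.000882, or with no filter on low counts. The lincRNA BX663606.1 is described below beside abcc4. The microRNA gene dre-mir-29b-1 (chr6:47467910-47467992), of a family known in mammals for repressing collagen mRNAs, had 20.9, 9.44 and 19.2 normalised counts at 6 h, against 7.54, 6.16 and 6.57 at 0 h. Its log2 fold change was 1.43 ± 0.39 at 3 h (adjusted p = 0.0151) and 1.27 ± 0.39 at 6 h (adjusted p = 0.0213). The adjusted p was above 0.05 at 3 h without the second library of 0 h (0.0537) or of 3 h (0.0519), and at 6 h in DESeq2 (0.0617) and without the second (0.0671) or the third (0.0629) of 0 h or the first (0.106) or the third (0.0667) of 6 h.

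The other pair had under 20 reads on average. The lincRNA CU138542.2 had a log2 fold change of 1.39 ± 0.48 at 6 h (adjusted p = 0.0388) and the sense intronic gene CU019624.1 one of 1.26 ± 0.43 (adjusted p = 0.0368). For both the adjusted p was above 0.05 without the second or the third library of 0 h or the first or the third of 6 h, and for CU138542.2 also without the second of 6 h, with values up to 0.147 and 0.142, and with the replicate block (0.0524). Of the 9 microRNA genes among the members, then, 3 rose at 3 h at an adjusted p below 0.05, and none fell. These were BX663516.1, dre-mir-132-2 and dre-mir-29b-1, with the exceptions given for the last pair, or 33.3%, against 11.3% of all genes. BX663516.1 and dre-mir-29b-1 had means of 5.0 and 6.0 reads at 0 h and reached the minimum only through the light libraries. The share was therefore partly set by that minimum and is given as a value only. The microRNA gene with the most reads, dre-mir-16b, had 49.4, 46.2 and 30.9 normalised counts at 6 h, against 33.9, 45.6 and 40.7 at 0 h, and these overlapped.

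Among members with lower counts under light, changes were smaller. The processed pseudogene CT573256.1 had 272, 249 and 250 normalised counts at 6 h, against 371, 411 and 465 at 0 h, and its log2 fold change was -0.69 ± 0.09 (adjusted p = 2.92e-05). The lincRNA CU856520.1 had 553, 453 and 589 at 6 h, against 689, 842 and 862 at 0 h (log2 fold change -0.58 ± 0.10, adjusted p = 0.000286), although its 3 h libraries, at 979, 913 and 931, were above 0 h. The lincRNA BX470264.1 had 187, 206 and 175 at 6 h, against 259, 249 and 339 at 0 h (log2 fold change -0.57 ± 0.12, adjusted p = 0.00176). These 3 genes passed at an adjusted p below 0.05 under every alternative tried.

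The lincRNA zgc:194207 had 13.4, 13.6 and 6.39 normalised counts at 6 h, against 21.7, 22.2 and 59.1 at 0 h (log2 fold change -1.57 ± 0.44, adjusted p = 0.0128). The third library of 0 h was far above the others, and without it the value was -0.96 (adjusted p = 0.124). Without the third library of 6 h it was -1.32 (adjusted p = 0.0585). The lincRNAs CR854945.1 and BX682556.1 had -1.14 ± 0.37 and -0.81 ± 0.26 (adjusted p = 0.0293 and 0.0298), the lincRNA BX511166.1 -0.73 ± 0.23 (adjusted p = 0.0249), the processed transcript BX005234.1 -0.78 ± 0.21 (adjusted p = 0.00922) and the snoRNA RF00213 -0.73 ± 0.19 (adjusted p = 0.00785). Leaving out 1 library took the adjusted p above 0.05 for each of these 5 (any 1 of 4 libraries for CR854945.1 and for BX511166.1, of 6 for BX682556.1 and of 1 for BX005234.1 and RF00213), up to 0.109 for CR854945.1 without the second of 6 h, 0.0851 for BX682556.1 without the third of 6 h, 0.0870 for BX511166.1 without the third of 0 h, 0.0527 for BX005234.1 without the second of 6 h and 0.0502 for RF00213 without the first of 6 h. In DESeq2 the adjusted p was 0.0752 for CR854945.1 and 0.0678 for BX682556.1, and with no filter on low counts it was 0.0514 for CR854945.1.

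At 3 h, CU914602.1, a lincRNA whose current symbol is linc-ntf4/5, had 91.5, 88.9 and 108 normalised counts, against 176, 160 and 129 at 0 h. Its log2 fold change was -0.70 ± 0.15 at 3 h (adjusted p = 0.00342), and at 6 h it had 198, 204 and 179 normalised counts, above 0 h (0.31 ± 0.14, adjusted p = 0.110). BX248501.1 (-1.43 ± 0.41, adjusted p = 0.0216) and CU459089.1 (-1.28 ± 0.36, adjusted p = 0.0185), both processed transcripts, and the antisense gene CR626944.1 (-0.60 ± 0.17, adjusted p = 0.0253) were the other nuclear genes of largest decrease at 3 h. The adjusted p of BX248501.1 was 0.115 without the first library of 0 h and 0.103 without the first of 3 h. That of CU459089.1 was 0.114 without the second library of 0 h, 0.0692 without the first of 3 h and 0.0536 without the third of 3 h. For CR626944.1 it was 0.119 and 0.0535 without the first and second library of 0 h, and 0.0910 and 0.0935 without the first and second of 3 h.

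The most abundant members moved little. FO704736.1 (rps20) had a mean of 86113 reads, 29.8% of all reads on members, and 101000, 110000 and 109000 normalised counts at 3 h, against 74000, 83200 and 92700 at 0 h. Its log2 fold change was 0.36 ± 0.09 at 3 h (adjusted p = 0.0116) and -0.15 ± 0.09 at 6 h (adjusted p = 0.224), and at 3 h the adjusted p was 0.0524 without the first library of 0 h and 0.0515 without the second of 3 h. The lincRNA CR936442.1 (erv) had 28700, 28700 and 28000 normalised counts at 6 h, against 24500, 23900 and 24200 at 0 h (log2 fold change 0.23 ± 0.05, adjusted p = 0.000850). The lincRNA CR925728.1 had 30500, 31100 and 28500 at 3 h, against 24700, 25200 and 24800 at 0 h (log2 fold change 0.27 ± 0.05, adjusted p = 0.00138), and CU927934.3 had 11500, 11300 and 11700 at 6 h, against 13200, 14300 and 15000 at 0 h (log2 fold change -0.30 ± 0.06, adjusted p = 0.000692).

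Of the conserved long noncoding RNAs searched for, 2 were members. The first, malat1 (CR383676.1), which in mammals gathers in nuclear speckles, had 15800, 16200 and 16200 normalised counts at 6 h, against 17300, 19300 and 18700 at 0 h. It fell by 0.20 ± 0.05 on the log2 scale at both 3 h and 6 h (adjusted p = 0.00825 and 0.00490). The second, oip5-as1, had 627, 655 and 672 at 6 h, against 622, 679 and 573 at 0 h, which overlapped (log2 fold change 0.06 ± 0.08). The snoRNA host gene gas5 (CU467861.1) had 421, 401 and 470 at 6 h, against 578, 576 and 661 at 0 h, and fell by 0.49 ± 0.08 on the log2 scale (adjusted p = 0.000273), after 0.00 ± 0.08 at 3 h. None of the 21 snoRNAs and small Cajal body RNAs rose and 1, RF00213, or 4.76% against 14.9% of all genes, was lower at 6 h at an adjusted p below 0.05 (0.0502 without the first library of 6 h), and their median log2 fold change was -0.27 at 6 h.

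Some members whose symbols are protein-coding in RefSeq passed with moderate changes. Among these 41 members, 11 were higher and 3 lower at 6 h at an adjusted p below 0.05, or 26.8% and 7.32%, against 14.1% and 14.9% of all genes. CU571331.1, which overlaps castor1 (an arginine sensor of the mTORC1 pathway) on the same strand and bears its symbol, had 951, 1040 and 946 normalised counts at 3 h, against 497, 500 and 526 at 0 h. It rose by 0.95 ± 0.06 on the log2 scale at 3 h and 0.71 ± 0.06 at 6 h (adjusted p = 2.16e-08 and 3.58e-07). Reads of overlapping genes cannot be told apart here. In no tested pair overlapping on the same strand did both partners pass at 6 h, so castor1 either did not pass or was not tested. BX323884.1, a lincRNA 121 bases from rin2 on the same strand, had 890, 922 and 902 at 6 h, against 545, 519 and 537 at 0 h (log2 fold change 0.76 ± 0.06, adjusted p = 6.85e-08), and rin2 had 0.14 (adjusted p = 0.0426). The polymorphic pseudogenes apip, of methionine salvage, and mdh1ab, a malate dehydrogenase, are genes that the annotation calls inactive in some strains. For mdh1ab the log2 fold change was 0.32 ± 0.07 at 6 h (adjusted p = 0.00345) and for apip -0.20 ± 0.08 (adjusted p = 0.0763).

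Of the 54 pseudogenes, 4 were higher and 1 lower at 6 h at an adjusted p below 0.05, or 7.41% and 1.85%, against 14.1% and 14.9% of all genes, with a median log2 fold change of 0.08. The transcribed unprocessed pseudogene CR354588.1 had 2510, 2420 and 2470 normalised counts at 6 h, against 2480, 2380 and 2060 at 0 h, which overlapped. Of the 20 cytosolic ribosomal RNA genes 1 was higher at 6 h at an adjusted p below 0.05 and none lower, or 5.0% higher against 14.1% of all genes. The higher one was a 5S gene (RF00001) with a mean of 7.33 reads at 0 h. It reached the minimum only through later times, so its rise was partly set by that minimum. Of the 20 genes, 10 had fewer than 20 reads on average. CT583728.22, the most read of them, varied over a wide range within each time, with 7.00, 363 and 42.7 normalised counts at 1 h, and its SE was about 1 on the log2 scale at every time. Among the 9 sense intronic or overlapping genes, CT583708.1, inside the phosphodiesterase gene pde4bb, had 156, 174 and 185 at 6 h, against 244, 257 and 234 at 0 h (log2 fold change -0.52 ± 0.10, adjusted p = 0.00107).

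The position of the members relative to coding genes was then described. Of the 474 members, 154 overlapped a protein-coding gene, 101 of these on the opposite strand and 53 on the same strand, and 380 lay within 10 kb of one. The sources used here do not tell whether the counting used the strand, so reads from overlapping genes cannot be told apart. Of the 320 members without such an overlap 5 were called higher at 6 h (1.56%), and of the 154 with one 2 were (1.3%), against 1.47% of all genes. In 354 members the nearest coding gene was itself tested, and across these pairs the log2 fold changes at 6 h had a Pearson's r of 0.09 and a Spearman's rho of 0.13. The pairs share libraries and are no independent replicates. Both partners passed at an adjusted p below 0.05 in 14 pairs, 10 in the same direction and 4 in opposite directions.

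**Figure D4:**
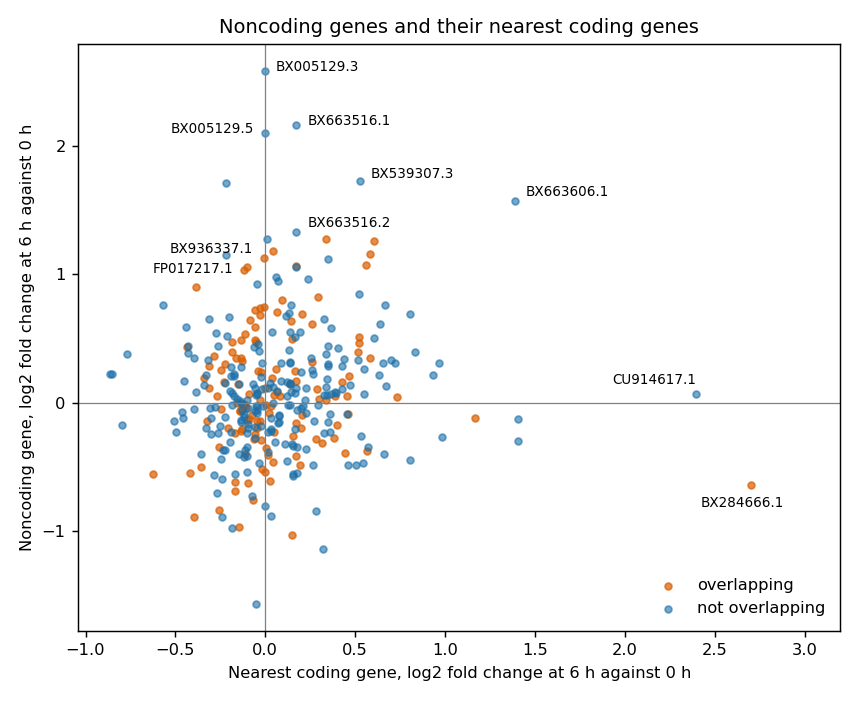
Log2 fold change at 6 h against 0 h of 354 members, on the vertical axis, and of their nearest coding genes, on the horizontal axis. Orange dots are members that overlap the coding gene and blue dots those that do not. The points do not follow a diagonal (Pearson's r = 0.09). BX284666.1 lies at the right and below 0, opposite to blvra, and BX663606.1 lies high on both axes.

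By arrangement, r was 0.24 for the 46 pairs that overlapped on the same strand, -0.03 for the 83 that overlapped on opposite strands, 0.39 for 39 tail to tail pairs within 10 kb and 0.33 for 36 head to head pairs within 10 kb. In the last group Spearman's rho was -0.06, so that r rested on few pairs. Neighbours in the same direction within 10 kb gave 0.06 over 101 pairs. None of these values was tested.

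Within 10 kb of a coding gene called at any time lay 6 members, and 13 within 50 kb. The closest to a strongly induced gene was BX284666.1 (si:ch211-190k17.31, chr2:49855746-49856793, plus strand), a processed transcript that overlaps blvra on the opposite strand. Biliverdin reductase, the product of blvra, makes the antioxidant bilirubin from biliverdin. The coding gene had 926, 943 and 882 normalised counts at 6 h, against 149, 137 and 135 at 0 h (log2 fold change 2.70 ± 0.08, adjusted p = 4.34e-13). The transcript opposite to it had 109, 84.0 and 84.2 at 6 h, against 141, 135 and 158 at 0 h (log2 fold change -0.64 ± 0.18, adjusted p = 0.0137). At 3 h blvra was already up at 1.44 ± 0.08, while BX284666.1 had -0.03 ± 0.18. The decrease no longer passed 0.05 without the third library of 0 h (-0.58, adjusted p = 0.0510) or the second (-0.58, adjusted p = 0.0601) or the third (-0.58, adjusted p = 0.0538) of 6 h.

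BX663606.1 (si:ch211-181l5.5, chr6:7313548-7322193, minus strand) is a lincRNA that starts 394 bases from abcc4, an exporter of cyclic nucleotides and drugs, and is transcribed away from it. It had 24.3, 22.0 and 26.6 normalised counts at 6 h, against 5.66, 8.62 and 10.5 at 0 h, and rose by 1.58 ± 0.35 on the log2 scale (adjusted p = 0.00256) without being called. The coding gene abcc4 had 5530, 5270 and 5220 at 6 h, against 2120, 2030 and 1950 at 0 h (log2 fold change 1.39 ± 0.05, adjusted p = 4.96e-12). Neither group of libraries overlapped the other in either gene. BX663606.1 was the only one of the 6 members near a called coding gene that passed in the same direction as that gene. With a mean of 7.0 reads at 0 h it reached the minimum only through the light libraries, and so had to have more raw reads there.

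The other 4 did not pass at 6 h while their neighbours were called. CU914617.1, 9691 bases from the ascorbate transporter gene slc23a2, had a log2 fold change of 0.06 ± 0.19, and slc23a2 2.40 ± 0.22. BX936320.1, which overlaps the calcium sensor gene stim1b on the same strand, had -0.12 ± 0.26, and stim1b 1.17 ± 0.17. CU104777.1, 4540 bases from nfe2l2a, the regulator of antioxidant genes known as Nrf2, had 0.17 ± 0.35, and nfe2l2a 1.28 ± 0.05. CU914617.1, BX936320.1 and CU104777.1 had 56.7, 42.0 and 16.5 reads on average.

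The last of the 6 was RF00069 (SNORD24), a snoRNA inside the ribosomal protein gene rpl7a on the same strand and 1808 bases from surf1, an assembly factor of cytochrome c oxidase. It had 19.3, 16.8 and 11.7 normalised counts at 6 h, against 5.66, 8.62 and 15.8 at 0 h, which overlapped (log2 fold change 0.72 ± 0.44, adjusted p = 0.242). Its neighbour surf1 had 1.40 ± 0.06, and its host rpl7a -0.06 ± 0.07. Another antisense member, BX323824.1, opposite to klf13, a zinc finger transcription factor, had 26.8, 24.1 and 30.9 at 6 h, against 12.3, 13.5 and 10.5 at 0 h. It rose by 1.16 ± 0.28 on the log2 scale (adjusted p = 0.00455), and klf13 had 0.58.

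The share of all reads that fell on each class was compared over the 4 times with an exact permutation test over the 369600 assignments of libraries to times, which can give no p below 6.49e-05, and the p were adjusted over 12 tests. All members together took 1.11% ± 0.01 of reads at 0 h, 1.11% ± 0.03 at 1 h, 1.18% ± 0.02 at 3 h and 1.12% ± 0.01 at 6 h (SD over 3 libraries, adjusted p = 0.0291 by the exact test). Without FO704736.1 (rps20) the adjusted p was 0.215. It was also above 0.05 without the second (0.0901) or the third (0.0502) library of 3 h or the first (0.0536) or second (0.0586) of 6 h. Shares are relative, so a higher share of a class can also come from fewer reads elsewhere.

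Antisense genes had the smallest adjusted p. They took 0.0187%, 0.0187% and 0.0180% of reads at 0 h, 0.0217%, 0.0206% and 0.0196% at 1 h, 0.0200%, 0.0203% and 0.0199% at 3 h, and 0.0247%, 0.0239% and 0.0230% at 6 h. All libraries under light lay above those of 0 h (adjusted p = 0.00312, exact permutation test). FP017217.1 made up 27.8% of these reads, and without it the log2 ratio of 6 h over 0 h was 0.12 rather than 0.37, with an adjusted p of 0.0287. For the antisense genes that overlap no coding gene the adjusted p was 0.498.

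LincRNAs took 0.486% ± 0.002 at 6 h, against 0.456% ± 0.010 at 0 h (adjusted p = 0.00987, exact permutation test). Leaving out the second library of 3 h or of 6 h gave adjusted p of 0.0514 and 0.0586. The microRNA genes took 0.000592%, 0.000572% and 0.000554% at 0 h, 0.000678%, 0.000641% and 0.000589% at 1 h, 0.000855%, 0.000933% and 0.000782% at 3 h, and 0.000883%, 0.000742% and 0.000646% at 6 h. The libraries of 3 h and 6 h lay above those of 0 h (adjusted p = 0.0291, exact permutation test), but the adjusted p was no longer below 0.05 without any 1 library of 3 h or the second of 6 h, with adjusted p of 0.0502 to 0.0860. BX663516.1 and dre-mir-29b-1 are in this class only through their reads under light. A higher share under light was thus partly set by the minimum of reads, which this test cannot tell apart from a rise of the class.

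Processed transcripts took 0.505%, 0.547% and 0.533% at 3 h, against 0.460%, 0.443% and 0.498% at 0 h (adjusted p over the 4 times 0.0323, exact permutation test), and without rps20 the adjusted p was 0.749. It was also above 0.05 without the second library of 1 h (0.0509) or any 1 library of 3 h or 6 h (0.0542 to 0.112). Pseudogenes, cytosolic ribosomal RNAs, sense intronic genes, snoRNAs and the remaining genes had adjusted p of 0.0862, 0.780, 0.0900, 0.103 and 0.103 by the exact test and did not pass. Pseudogenes passed without the second (0.0396) or the third (0.00818) library of 0 h or without their most abundant member (0.0287), and sense intronic genes without the third library of 0 h (0.0346). Without their most abundant members, CT583728.22 and RF00494, cytosolic ribosomal RNAs and snoRNAs passed (0.0287 each), and the log2 ratio of 6 h over 0 h for cytosolic ribosomal RNAs was 0.26, against -0.06 for the whole class.

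**Figure D5:**
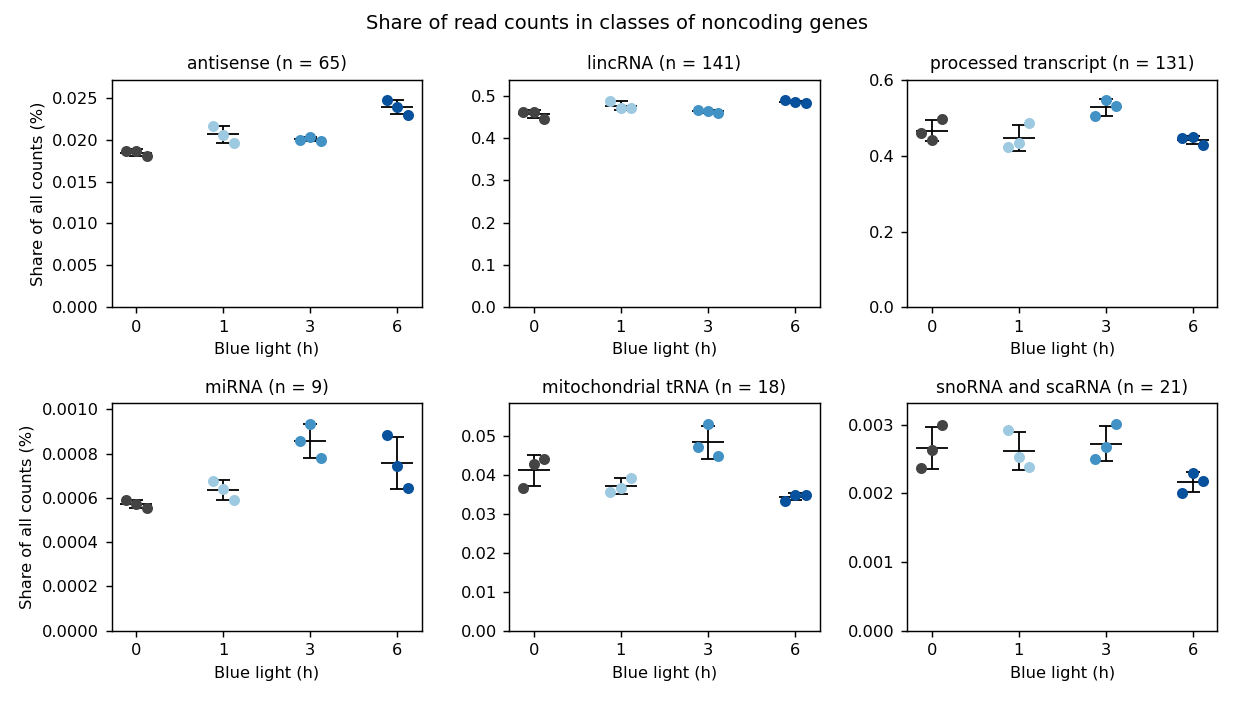
Share of all read counts, in percent, that fell on 6 classes of noncoding genes after 0, 1, 3 and 6 h of blue light. Dots are the 3 libraries of a time, and bars give the mean and SD. Antisense genes lie above 0 h at every light time, microRNA genes are highest at 3 h with a mean of 0.000857%, and mitochondrial transfer RNAs are high at 3 h and low at 6 h.

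The mitochondrial RNAs moved in 2 directions. The transfer RNAs took 0.0472%, 0.0530% and 0.0447% of reads at 3 h and 0.0334%, 0.0349% and 0.0349% at 6 h, against 0.0365%, 0.0428% and 0.0441% at 0 h (adjusted p = 0.00987, exact permutation test). NC_002333.18, a transfer RNA on the minus strand upstream of mt-co1, made up 63.3% of them. It had 8750, 10200 and 8250 normalised counts at 3 h and 4800, 5000 and 4980 at 6 h, against 5460, 6720 and 7600 at 0 h, and without it the class did not pass (adjusted p = 0.440). Leaving out the second library of 3 h gave an adjusted p of 0.0525 for the class.

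Of the 18 transfer RNAs, 1 was higher (5.56%, against 11.3% of all genes) and 2 lower (11.1%, against 10.1%) at 3 h, and 2 were lower at 6 h (11.1%, against 14.9%), all at an adjusted p below 0.05. At 3 h those lower were NC_002333.20 (-0.58 ± 0.19, adjusted p = 0.0351, and above 0.05 without the second library of 0 h at 0.144 or the first or second of 3 h at 0.134 and 0.102) and NC_002333.6 (-0.44, adjusted p = 0.0370, and 0.0542 to 0.102 without any 1 of the 6 libraries of 0 h and 3 h). The ribosomal RNAs split at 3 h. NC_002333.17 (952 bases) had 5830, 6540 and 5880 normalised counts, against 4890, 5260 and 5430 at 0 h (log2 fold change 0.23 ± 0.06, adjusted p = 0.0121), and NC_002333.4 (1683 bases) had 12000, 11900 and 11600, against 13600, 14000 and 12300 at 0 h (-0.17 ± 0.05, adjusted p = 0.0275). The adjusted p was above 0.05 for NC_002333.17 without the first library of 0 h (0.0632) or the second of 3 h (0.0789), and for NC_002333.4 without the first or second of 0 h, without any 1 library of 3 h or with the 2 times fitted alone (0.0586 to 0.117). At 6 h neither of these ribosomal RNAs passed at an adjusted p below 0.05 in edgeR. Their joint share was 0.0730% ± 0.0049 at 0 h, 0.0702% ± 0.0031 at 1 h, 0.0657% ± 0.0014 at 3 h and 0.0773% ± 0.0008 at 6 h. The exact test over the 4 times gave an adjusted p of 0.0291, which was above 0.05 without any 1 library of 3 h or 6 h (0.0542 to 0.0758). NC_002333.4 made up 70.7% of these reads, and without it the log2 ratio of 6 h over 0 h was -0.02 (adjusted p = 0.121). The mitochondrial coding genes took 5.38% ± 0.17 of reads at 3 h and 4.93% ± 0.09 at 6 h, against 5.17% ± 0.35 at 0 h (SD over 3 libraries).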

How the data were processed

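Total RNA of PAC-2 cells was selected on poly-T beads and sequenced in pairs. The authors had the reads mapped to GRCz11 and deposited a table of raw read counts and a table of FPKM per gene, of which the 12 PAC-2 columns each were used. Which aligner, counter, annotation release and strand setting were used is not stated in the sources used here. FPKM, as deposited, serve only to compare levels between genes. The transcript assemblies of both cell lines and the cavefish EPA libraries were not used.

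Counts of all 12 libraries were fitted with edgeR 4.0.16 (R 4.3.3, TMM scaling, filterByExpr, robust quasi-likelihood test, 8 residual degrees of freedom), and p-values were adjusted over 18017 genes after Benjamini and Hochberg. Calls follow the study's rule. TMM factors were 0.930 to 0.946 at 3 h and 1.04 to 1.05 at 6 h. DESeq2 1.42.0, other scaling and filters, single libraries left out and a replicate block were tried. Class shares were computed from raw counts, without TMM scaling, with Python 3 in 12 exact tests. The edgeR fit was tested on simulated counts. No sequence is printed.

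Named are the called members, the largest changes at an adjusted p below 0.05 with groups apart (10 each way at 6 h, 5 at 3 h and at 1 h), the most read members of each biotype, members within 10 kb of a called coding gene, and members of gene lists. BX323824.1, BX323884.1, CU571331.1, NC_002333.6, BX005129.2 and BX005129.4 were named after their values were seen. Of the lists, spliceosomal RNAs, microRNA host genes and immune receptor segments had no member, and the signal recognition particle RNA rn7sl1 did not pass. The members and lists were chosen with earlier results of these data known.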

Additional observations from a re-analysis of the deposited data

Results flagged for a closer look

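In 4 members (LO018013.1, NC_002333.18, CU929444.1 and CT737129.1) the effect at 6 h and the effect at 3 h, both against the same 0 h libraries, had opposite signs, each at an adjusted p below 0.05, and the difference between 6 h and 3 h passed edgeR's quasi-likelihood test as well. The difference (6 h minus 3 h, log2) was -0.88 for the mitochondrial transfer RNA NC_002333.18, -0.42 for the processed transcript LO018013.1, 0.83 for the processed transcript CU929444.1 and 1.68 for the lincRNA CT737129.1. CU929444.1 had 1040, 1110 and 1150 normalised counts at 3 h and 1910, 1970 and 1960 at 6 h, against 1600, 1440 and 1340 at 0 h. CT737129.1 had 19.3, 35.5 and 25 at 3 h and 72.8, 104 and 76.7 at 6 h, against 69.8, 46.8 and 30.2 at 0 h. Of these, only CU929444.1 passed at both times under every alternative tried. The share of all genes with opposite signs at 3 h and 6 h is not given here, so the count of 4 is a value only.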

How the results depend on the processing

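The number of members called at 3 h (4) became 12 with an adjusted p below 0.05 in place of 0.001, and 2 among members with a mean of 50 reads or more. The number called at 6 h (7) became 21 and 4 under these settings, and 4 when the 2 times were fitted alone. The shares of all genes called under these alternatives, or with 1 library left out, are not given here. The counts are therefore values only and tell nothing particular to the members. With 1 library left out, 0 to 4 members were called at 3 h, with 0 without the second library of 0 h, and 3 to 8 at 6 h, with 3 without the first library of 6 h. The replicate numbers did not pair the libraries (18 pairs, correlations from -0.0856 to 0.16), and with the replicate block 0, 4 and 8 members were called at 1, 3 and 6 h. Members within 50 kb of a called coding gene numbered 13, against 6 within 10 kb.

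The log2 ratio of the class shares, 6 h over 0 h, was, without the most abundant member of each class, -0.0224 for mitochondrial ribosomal RNA, the reverse of the whole class, -0.0949 for mitochondrial transfer RNA, -0.0411 for processed transcripts and 0.0543 for all members, which no longer passed, and 0.088 for pseudogenes, 0.264 for cytosolic ribosomal RNA and -0.2848 for snoRNAs, which then passed. Without members that overlap coding genes it was 0.1837 for antisense genes, which no longer passed, and 0.2532 for cytosolic ribosomal RNA, which then did. With 1 library left out it ranged from 0.0739 to 0.1012 for lincRNAs, 0.2772 to 0.5045 for microRNA genes, 0.0289 to 0.1168 for mitochondrial ribosomal RNA, -0.3362 to -0.2034 for mitochondrial transfer RNA, -0.1157 to -0.0297 for processed transcripts, 0.0077 to 0.0737 for pseudogenes, -0.1728 to -0.0739 for sense intronic genes, -0.1995 to 0.1922 for cytosolic ribosomal RNA, -0.3802 to -0.2116 for snoRNAs, 0.345 to 0.3964 for antisense genes, 0.1972 to 0.3059 for the remaining genes and 0.0043 to 0.0207 for all members. The cause of these shifts was not tested. Of the values of named genes under alternatives, 1047 kept their direction and their side of the call threshold, 32 calls were lost, 6 were gained and none reversed. Most of these values belong to genes that were not called and so had no call to lose. Among the calls, only those of BX936337.1 and BX005129.5 at 6 h were kept in every alternative fit. At the looser adjusted p below 0.05, 159 of 1189 values were at or above 0.05, in 32 of 70 pairs of a gene and a time. Few reads limit the result: 136 members had under 20 reads on average.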
